A study of Drosophila melanogaster with 6 samples.

Results

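The Brahma complex is the fly SWI/SNF chromatin remodeller, and 8 of its genes were followed in enteroblasts (EBs), the immature cells that intestinal stem cells of the fly gut give rise to. The genes are brm, mor, Snr1, Bap55, Bap60, osa, Bap170 and polybromo. The genes were chosen by name, for their place in the complex, but with earlier results of these data known. They are 8 of the 17321 genes in the deposited table. Each had 1 listed transcript, and all 8 passed the filter on low values, an average of 10 or more normalized reads across the libraries.

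RNA-seq was compared between 3 control EB libraries and 3 Sox21a EB libraries from the anterior midgut of female flies aged 16 to 18 days at 25 °C. EBs of both groups carried the Notch-responsive Su(H)GBE-Gal4 driver with UAS-CD8::GFP and were sorted by GFP, each library from its own pool of flies. The labels give the control genotype as wild-type and the methods as Sox21a/+, a heterozygote. The mutants were homozygous for Sox21a, with alleles described as small frameshift deletions in the HMG box. Sox21a RNA was 16080 ± 1718 normalized reads in control EBs and 16065 ± 2566 in Sox21a EBs (SD, n = 3 each), which with a small deletion checks nothing about the genotype.

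Brahma uses ATP to slide and evict nucleosomes, and so opens or closes DNA to transcription factors. The ATPase Brm sits on a core with Mor, Snr1, Bap55 and Bap60, and exists in at least a pair of forms. The BAP form carries Osa, and the PBAP form carries Polybromo and Bap170 instead. In the fly midgut, the Osa-containing form is known for its role in stem cell commitment and in expression of the Notch ligand Delta, and Brm is known to act with Yorkie in stem cell proliferation.

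Few of the 8 genes passed the test between the genotypes. With the values as deposited, 1 of 8 was higher in Sox21a EBs, 0 were lower and 7 did not pass an adjusted p of 0.05 (unpaired limma, Benjamini-Hochberg over 11400 transcripts). Over all tested transcripts 35.0% passed, 23.6% higher and 11.3% lower. The median log2 fold change of the 8 genes was 0.19, beside 0.21 over all transcripts. The median size of the change, without its sign, was 0.28 for the 8 genes and 0.47 over all transcripts. Those transcripts include many with lower averages than any of the 8, and levels were not matched. In 3 of 8 genes every Sox21a library was above every control library and in 1 it was below, where 34.8% and 16.6% of all transcripts did so (51.4% in either direction). The other 4 genes overlapped between the groups.

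**Figure D1:**
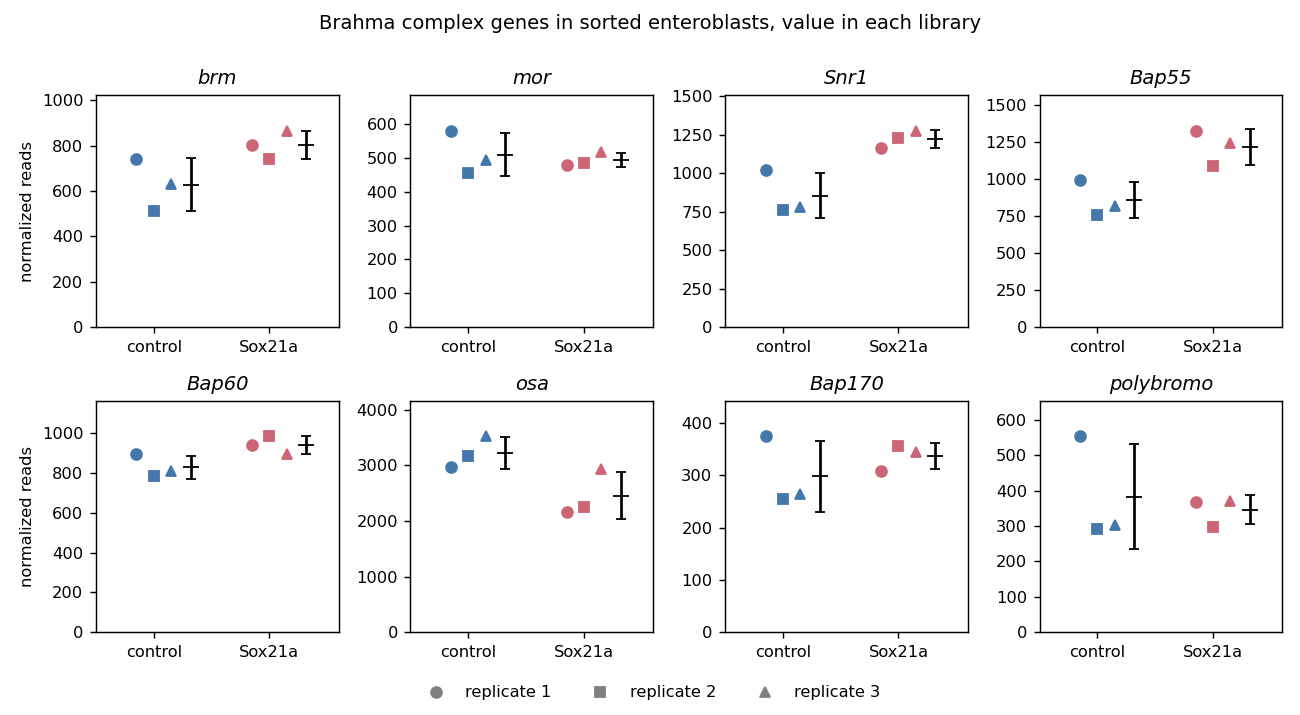
Normalized reads (reads divided by a size factor) of each Brahma complex gene in the 3 control and 3 Sox21a libraries, each axis starting at 0. Symbols give the replicate number, and the bars the mean and SD (n = 3). Snr1, Bap55 and Bap60 do not overlap and are higher in Sox21a EBs, osa does not overlap and is lower, and control EB1 is the highest control library in every panel except osa.

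Several facts of the libraries bear on every value. In the steps of which all values are multiples, the values summed to 37286049 to 45955837 per library over all transcripts. Whether reads shared by isoforms enter this sum more than once was not tested, so it is not taken as the depth itself. The median log2 fold change over all transcripts was 0.21 with the deposited size factors. New scaling factors (rescaling), taken from transcripts that averaged 100 or more, brought it to 0.02 by their construction, and which scaling is nearer to the cells was not tested. Control EB1 stood apart. Its transcripts differed by a median of 0.37 and 0.36 on the log2 scale, without sign, from those of control EB2 and EB3, which differed by 0.21 from each other. The changes also moved with transcript length, from a median log2 fold change of 0.35 in the shortest of 10 length classes (up to 790 bases) to -0.17 in the longest (from 5806 bases). The deviation of control EB1 from the other controls went the same way except in the shortest class, with a log2 median of 0.01 there, 0.14 in the next and -0.29 in the longest. Messenger RNA had been amplified before library preparation, and the part of amplification or RNA quality in these trends was not tested. Cell type markers moved too. The summed enterocyte markers were 45099 to 83892 normalized reads in control EBs and 20897 to 25496 in Sox21a EBs (5 of 7 lower), the progenitor markers 67431 to 94162 and 33455 to 40510 (3 of 6 lower), and the stem cell markers 388 to 571 and 440 to 988 (1 of 2 lower). The largest part of the progenitor sum was esg, with means of 40916 in control and 14335 in Sox21a EBs (adjusted p = 0.0011 by limma). E(spl)m3-HLH and E(spl)malpha-BFM were also called lower, and hdc, klu and Sox100B did not pass. The paper, with an esg reporter, reports esg expression as not affected in Sox21a flies. The stem cell sum was mostly Dl (Delta), which was high in Sox21a EB3 alone (966). The marker called lower was spdo (64.1, 43.5 and 31.0 in control EBs, 19, 12 and 21.6 in Sox21a EBs). The enteroendocrine markers were 642 to 956 and 2131 to 4980 (2 higher and 1 lower of 6 tested). pros, whose protein the paper uses to mark these cells, was the one called lower (145, 210 and 154 in control EBs, 107, 48 and 45.2 in Sox21a EBs). Tk (191, 203 and 100 in control EBs, 1358, 390 and 305 in Sox21a EBs) and CCHa2 (242, 44.7 and 118, then 2040, 1230 and 886) were called higher. The tracheal markers were 698 to 964 and 1886 to 2581 (3 of 4 tested higher). Most of the tracheal sum was btl (932, 718 and 652 in control EBs, 1476, 1953 and 2237 in Sox21a EBs). Gasp (2.07, 2.23 and 4.14 in control EBs, 339, 315 and 287 in Sox21a EBs) and trh (14.5, 19.0 and 29.0, then 42, 52 and 34.4) were called higher too. The paper reports a btl reporter active in some of the Sox21a EBs themselves. The visceral muscle markers were 44.5 to 71.5 and 35.0 to 59.0, with 1 of 6 tested and that one, Mlp84B, lower (log2 fold change -1.24, adjusted p = 0.018 by limma), and Mhc near the lowest value the table holds. Haemocyte markers were 353 to 507 and 133 to 189, with 2 of 6 tested, 1 of them lower (Sr-CI, log2 fold change -1.40, adjusted p = 0.0020 by limma), and Hml, NimC1 and eater near the lowest value. The part of cell composition in the results was not tested, and fewer cells of a type and less RNA per cell cannot be told apart in bulk libraries.

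The ATPase gene brm (FBgn0000212, chromosome 3L, 15970082 to 15982869, minus strand, Release 6) encodes a protein of 1658 residues. It was at 743, 510 and 630 normalized reads in control EB1, EB2 and EB3, and at 805, 742 and 867 in the Sox21a libraries. The groups met only at control EB1 (742.7), just above Sox21a EB2 (742). Mean values were 628 ± 116 in control and 805 ± 62.3 in Sox21a EBs (SD, n = 3 each), and the log2 fold change was 0.37 (SE 0.18, 95% interval -0.06 to 0.80, adjusted p = 0.15 by limma). Without control EB1 it was 0.50 (adjusted p = 0.048). The span of brm, introns included, overlaps 4 genes on the other strand, CG17026 to CG17029. Whether their exons share bases with those of brm was not tested, and whether reads were counted by strand is not stated. brm lies 1861963 bases from Sox21a on the same arm.

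Among the core genes, Snr1 was the one that passed the test. Snr1 (FBgn0011715, chromosome 3R, 5470926 to 5472754, plus strand), the fly counterpart of human SMARCB1, was at 1023, 758 and 780 normalized reads in control EBs. In Sox21a EBs it was at 1162, 1230 and 1276, each above the highest control. Mean values were 854 ± 147 in control and 1223 ± 57.3 in Sox21a EBs, and the log2 fold change was 0.53 (SE 0.17, 95% interval 0.13 to 0.93, adjusted p = 0.048 by limma). The call was a narrow one. It was lost with the replicate number as a block (adjusted p = 0.066), after rescaling (log2 fold change 0.34, adjusted p = 0.12) and in 5 of the 6 fits that left out 1 library, where the highest adjusted p was 0.14, and it was kept without control EB1 (0.67, adjusted p = 0.011).

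Bap55, the actin-related subunit (FBgn0025716, chromosome 2R, 17429353 to 17430963, minus strand), had much the same values. It was at 993, 758 and 818 normalized reads in control EBs and at 1327, 1088 and 1240 in Sox21a EBs, with no overlap. The log2 fold change was 0.51 (SE 0.17, 95% interval 0.11 to 0.91), with an adjusted p of 0.053 by limma, just outside the threshold, and of 0.037 with the replicate block. With the block 1 of 8 genes was therefore higher and 0 lower, as without it, but that gene was Bap55 and not Snr1. Over all transcripts 37.2% passed with the block, 25.1% higher and 12.1% lower. Bap55 is also a subunit of the INO80 and Tip60 remodelling complexes.

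Bap60, another core subunit (FBgn0025463, chromosome X, 13157445 to 13159508, minus strand), was at 896, 784 and 809 normalized reads in control EBs and at 942, 988 and 896 in Sox21a EBs. Its groups just failed to meet, at 895.8 in control EB1 and 896.1 in Sox21a EB3. The log2 fold change was 0.18 (95% interval -0.15 to 0.52, adjusted p = 0.34 by limma). mor (FBgn0002783, chromosome 3R, 15968134 to 15972913, minus strand), the scaffold of the core, was at 581, 457 and 493 normalized reads in control EBs and at 480, 485 and 518 in Sox21a EBs. The Sox21a libraries lay within the control range, and the log2 fold change was -0.04 (95% interval -0.41 to 0.33, adjusted p = 0.86 by limma), which allows a change in either direction of up to about the size seen in brm.

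The most abundant of the 8 by normalized reads, osa, was the one that lay lower in every Sox21a library. osa (FBgn0261885, chromosome 3R, 17687818 to 17718350, minus strand) encodes the ARID-domain subunit of the BAP form, a protein of 2716 residues. It was at 2967, 3174 and 3527 normalized reads in control EBs and at 2161, 2250 and 2934 in Sox21a EBs. Sox21a EB3 was close to control EB1, and the other Sox21a libraries were well below it. Mean values were 3223 ± 283 in control and 2448 ± 423 in Sox21a EBs, and the log2 fold change was -0.41 (SE 0.18, 95% interval -0.82 to 0.01, adjusted p = 0.11 by limma). The call depended on the scaling. After rescaling the log2 fold change was -0.60 (adjusted p = 0.024, and 0.028 with the block), so that 0 of 8 genes were higher and 1 lower, beside 16.6% and 16.8% of all transcripts (33.4% in all). The span of osa, introns included, overlaps a pair of long non-coding RNA genes on the other strand, and shared exon bases were not tested.

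The genes of the PBAP form did not differ beyond their spread. polybromo (FBgn0039227, chromosome 3R, 24799967 to 24805259, minus strand), which carries a row of bromodomains that bind acetylated histones, was at 554, 290 and 303 normalized reads in control EBs and at 367, 298 and 371 in Sox21a EBs. Control EB1 alone set the higher control mean. The log2 fold change was -0.09 (SE 0.27, 95% interval -0.73 to 0.55, adjusted p = 0.82 by limma), and 0.21 (adjusted p = 0.31) without control EB1. Bap170 (FBgn0042085, chromosome 2R, 6636512 to 6642358, plus strand), an ARID-domain protein of 1688 residues, was at 375, 255 and 264 normalized reads in control EBs and at 309, 356 and 344 in Sox21a EBs. Its groups overlapped at control EB1 too, and the log2 fold change was 0.20 (SE 0.19, 95% interval -0.26 to 0.65, adjusted p = 0.46 by limma).

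Control EB1 mattered for the whole set. It was the highest of the control libraries in 7 of the 8 genes and the lowest for osa, where 39.5% and 39.9% of all transcripts had it highest and lowest. Its value over the mean of control EB2 and EB3 was 1.87 for polybromo, 1.45 for Bap170, 1.33 for Snr1 and 1.30 for brm, down to 1.12 for Bap60 and 0.89 for osa. The median of that ratio was 1.28 over the 8 genes and 0.99 over all transcripts. Leaving out the highest control library raises a fold change by construction, and leaving out the lowest, as for osa, lowers it. Without control EB1, 3 of 8 genes were higher (brm, Snr1 and Bap55) and 0 lower, and 44.3% of all transcripts passed, 30.0% higher and 14.3% lower. osa was then at -0.46 (adjusted p = 0.085), and at -0.69 (adjusted p = 0.013) with the rescaling as well.

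**Figure D2:**
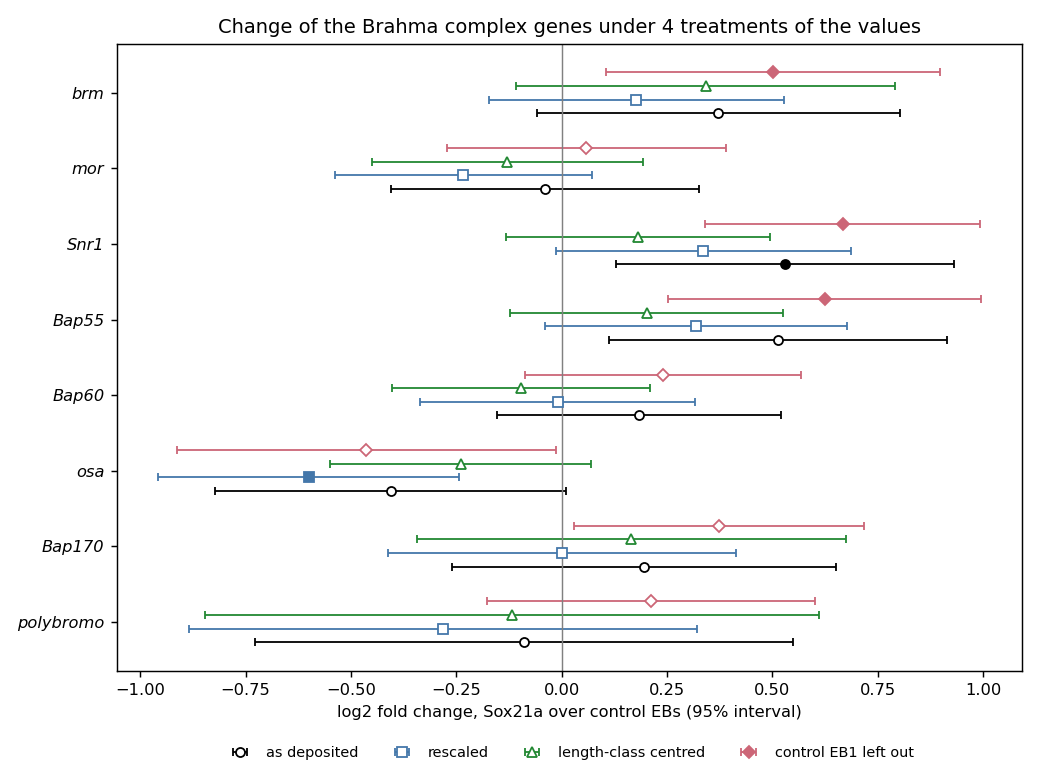
Log2 fold change of each gene, Sox21a over control EBs, with its 95% interval from limma, for the values as deposited, after rescaling, after centring in length classes, and without control EB1. Filled symbols have an adjusted p under 0.05. As deposited 1 gene is filled (Snr1), after rescaling 1 (osa), without control EB1 3 (brm, Snr1 and Bap55), and after length-class centring 0.

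The changes ran in part with transcript length. The shortest transcripts of the set, Snr1 (1335 bases), Bap55 (1473 bases) and Bap60 (1936 bases), were the ones higher without overlap, and the longest, osa (10714 bases), was the one lower without overlap. Transcripts of the length of Snr1 had a median log2 fold change of 0.34, and those of the length of osa -0.17. Set against their own length class, Snr1 was 0.20 above the median, Bap55 0.21 above it and Bap60 0.09 below it on the log2 scale, and osa was 0.24 below. brm (5339 bases) lay furthest from its class, 0.35 above a median of 0.02, with Bap170 (5316 bases) 0.17 above and polybromo (5119 bases) 0.11 below the same median. mor (3983 bases) lay 0.13 below its class.

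When each library was centred within 10 length classes before the fit, 0 of the 8 genes passed in either direction, with 31.9% of all transcripts passing (16.1% higher and 15.8% lower). The lowest adjusted p values of the 8 were 0.20 for osa (log2 fold change -0.24) and 0.21 for brm (0.34), and Snr1 was at 0.18 (adjusted p = 0.33). With centring and without control EB1, brm (0.52, adjusted p = 0.030) and Bap170 (0.39, adjusted p = 0.049) were higher and 0 genes lower, while 38.9% of all transcripts passed (19.4% higher and 19.6% lower). brm thus passed without control EB1 both with and without the centring, but not when the rescaling was used there (0.27, adjusted p = 0.12). For brm and Bap170 control EB1 was the highest control library, so leaving it out raises the fold change by construction. Centring of this kind also takes away any real change that long or short transcripts share, and this was not tested.

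**Figure D3:**
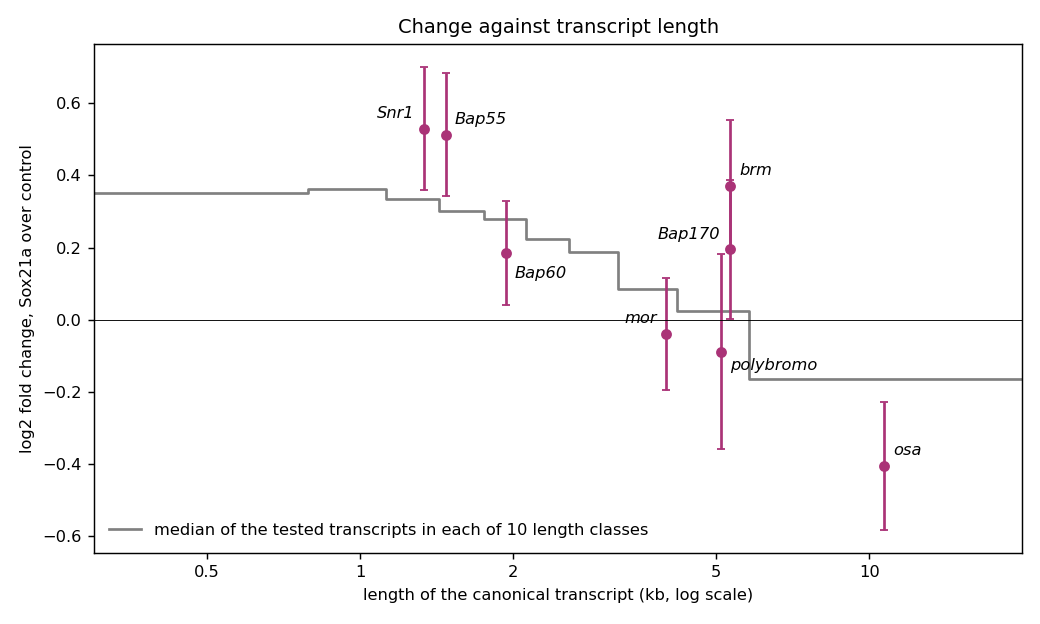
Log2 fold change (Sox21a over control EBs, values as deposited) against the length of the canonical transcript on a log axis. Points are the 8 genes with their standard error, and the grey line is the median of the tested transcripts in each of 10 length classes, from 0.35 at the shortest to -0.17 at the longest. brm and osa lie furthest from the line, above and below it.

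Ratios between genes within a library do not depend on the size factors. The ratio of osa to brm was 3.99, 6.22 and 5.60 in the control libraries and 2.68, 3.03 and 3.39 in the Sox21a libraries. The ratio of osa to Snr1 was 2.90, 4.19 and 4.52 in control EBs and 1.86, 1.83 and 2.30 in Sox21a EBs. Both were lower in every Sox21a library, as were the ratios of osa to Bap55 and to Bap60, 4 of 7 ratios in all. Against all tested transcripts, osa was lower without overlap in 54.2%, so that 4 of 7 is near the background. No test of these ratios was made.

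**Figure D4:**
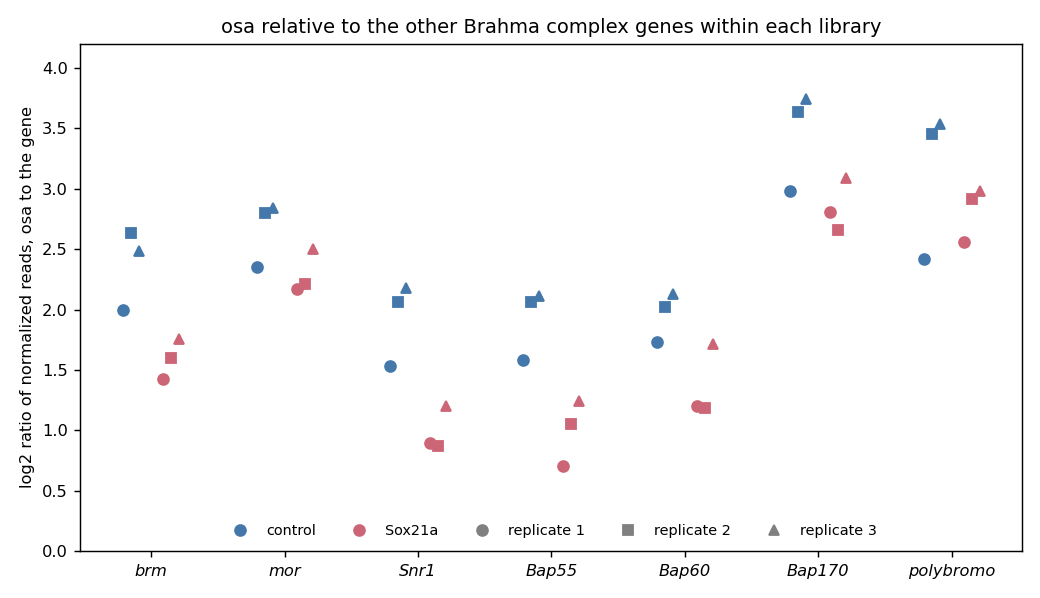
Log2 ratio of the normalized reads of osa to each of the other 7 genes within each library, in control and Sox21a EBs, with symbols for the replicate number. The ratios to brm, Snr1, Bap55 and Bap60 do not overlap between the groups, and those to mor, Bap170 and polybromo do, with control EB1 the lowest control each time.

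The balance of the BAP and PBAP signature genes overlapped between the groups. The ratio of osa to polybromo was 5.35, 10.9 and 11.6 in control EBs and 5.89, 7.55 and 7.91 in Sox21a EBs. The ratio of osa to Bap170 was 7.90, 12.5 and 13.4 in control EBs and 6.99, 6.32 and 8.52 in Sox21a EBs. In the first, control EB1 lay below every Sox21a library, and in the second between them. The log2 ratio of osa to the mean of the PBAP genes was 3.29 ± 0.52 in control EBs and 2.83 ± 0.18 in Sox21a EBs (SD, n = 3 each), a difference of -0.46. With 1 library left out it ran from -0.29 (without control EB3) to -0.76 (without control EB1).

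brm could also be set against genes of similar transcript length. The ratio of brm to polybromo was 1.34, 1.76 and 2.08 in control EBs and 2.19, 2.49 and 2.34 in Sox21a EBs. The ratio of brm to Bap170, the gene closest to it in length, was 1.98, 2.00 and 2.39 in control EBs and 2.61, 2.08 and 2.52 in Sox21a EBs. The ratio to polybromo did not overlap between the groups, and that to Bap170 did. The ratio of brm to mor, which is shorter, was 1.28, 1.12 and 1.28 in control EBs and 1.68, 1.53 and 1.67 in Sox21a EBs. The ratios to polybromo, mor and osa were higher in every Sox21a library, 3 of 7 ratios, beside 29.3% against all tested transcripts. The ratio of mor to Snr1, a pair of core subunits that differ in length, was 0.57, 0.60 and 0.63 in control EBs and 0.41, 0.39 and 0.41 in Sox21a EBs. Of the ratios of mor, 4 of 7 were lower without overlap (39.5% against all transcripts), and of those of Snr1, 5 of 7 were higher (38.8%).

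Per kilobase of transcript, the levels of the 8 genes in control EBs spanned about an order of magnitude. Normalized reads per kilobase were 639 ± 110 for Snr1, 581 ± 82.9 for Bap55, 428 ± 30.4 for Bap60 and 301 ± 26.5 for osa. They were 128 ± 16.1 for mor, 118 ± 21.8 for brm, 74.7 ± 29.1 for polybromo and 56.0 ± 12.7 for Bap170 (SD, n = 3). Snr1 and Bap55 overlapped in their control libraries, as did mor with brm, brm with polybromo and polybromo with Bap170. In Sox21a EBs the levels per kilobase were 916, 827, 487 and 229 for Snr1, Bap55, Bap60 and osa, and 151, 124, 67.5 and 63.3 for brm, mor, polybromo and Bap170, so that the means of brm and mor changed order. Whether reads covered these amplified transcripts evenly along their length was not tested. By normalized reads without the length, the 8 genes lay between the 38.9 and 84.2 percentile of tested transcripts, so depth did not limit their detection.

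By their values over the 6 libraries, the other Brahma genes were not the ones closest to brm. The genes with the smallest distance of mean-centred log2 values to brm were CG6766, CG8108, CG4281, GCC185 and PIP5K59B, at distances of 0.069 to 0.104. Bap55 was at 0.27, rank 306 of 9570 genes, and Snr1 at 0.31, rank 492. Bap170 was at 0.39 (rank 1036), Bap60 at 0.43 (rank 1336), mor at 0.54 (rank 2279) and polybromo at 0.73 (rank 3894). osa was the furthest of them at 1.09, rank 6004.

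Of 7 further Brahma subunits, 0 were higher and 1 was lower, beside 23.6% and 11.3% of all transcripts. BCL7-like, the fly member of the BCL7 family, was at 345, 332 and 314 normalized reads in control EBs and at 152, 209 and 239 in Sox21a EBs. It fell by 0.75 on the log2 scale (SE 0.20, adjusted p = 0.026 by limma, 0.042 with the block and 0.0066 after length-class centring). The others did not pass. dalao, the HMG-box subunit Bap111, was at a log2 fold change of 0.19 (adjusted p = 0.36), and e(y)3, a PHD-finger subunit of the PBAP form, at -0.30 (adjusted p = 0.20). CG7154, the bromodomain gene Brd7-9, was at 0.14 (adjusted p = 0.50). d4 and tth, of the d4 family, were at 0.12 (adjusted p = 0.59) and -0.26 (adjusted p = 0.25), and tth was called lower after rescaling (adjusted p = 0.047, but 0.057 with the block as well) and after length-class centring (-0.45, adjusted p = 0.048). Act5C, an actin gene, was at -0.19 (adjusted p = 0.39).

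Some genes of other remodelling families and the Trithorax group changed by more than any of the 8. Of 52 genes tested in these lists, 8 were higher and 3 lower, where 23.6% and 11.3% of all transcripts were, with a median log2 fold change of 0.01 beside 0.21. simj, a subunit of the Mi-2/NuRD complex, was at 993, 918 and 829 normalized reads in control EBs and at 2807, 2617 and 2371 in Sox21a EBs, a rise of 1.51 on the log2 scale (SE 0.15, adjusted p = 0.00050 by limma). fs(1)h, the BET bromodomain gene of the Trithorax group, was at 7915, 10036 and 9763 in control EBs and at 3496, 4190 and 4628 in Sox21a EBs, a fall of 1.17 (log2 fold change -1.17, SE 0.18, adjusted p = 0.0029 by limma). Neither gene overlapped between the groups, and both passed with the block and after length-class centring. E(Pc), of the Tip60 complex, was also lower (-1.09, adjusted p = 0.0026).

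By family, the ISWI list had 1 of 8 higher (Caf1, 0.53), the CHD list 2 of 9 higher, the INO80 and SWR1 list 3 higher (MRG15 the most, 0.92) and 1 lower of 13, the other SNF2-like genes 1 of 6 higher (Marcal1, 1.01) and the Trithorax group 1 higher (Rbbp5, 0.81) and 2 lower of 16. The adjusted p was 0.029 for Caf1, 0.031 for MRG15, 0.015 for Marcal1 and 0.022 for Rbbp5. Caf1 and MRG15 did not pass after length-class centring (adjusted p = 0.13 and 0.089), and the others named here did. Counts moved with the scaling, to 4 higher and 11 lower of the 52 after rescaling (16.6% and 16.8% of all transcripts) and 5 higher and 4 lower after length-class centring (16.1% and 15.8%). With the block they were 9 higher and 6 lower (25.1% and 12.1%).

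**Figure D5:**
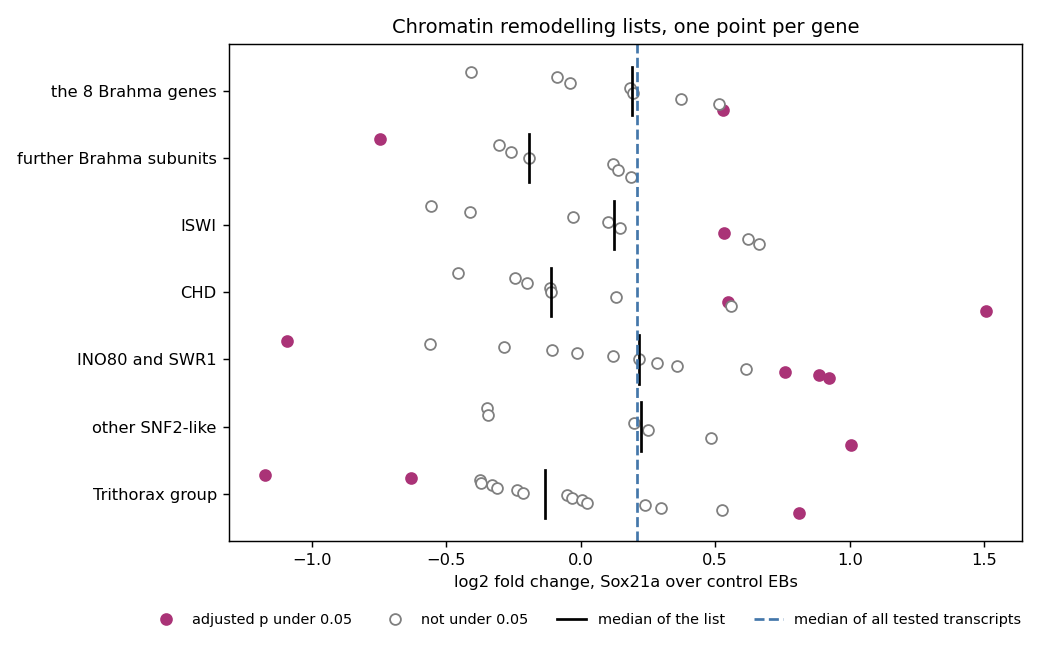
Log2 fold change (Sox21a over control EBs) of each tested gene in the Brahma set and in 6 related lists. Filled points have an adjusted p under 0.05, black bars are list medians, and the dashed line is the median of all tested transcripts (0.21). The 8 Brahma genes lie between -0.41 and 0.53, with 1 filled.

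Of 3 genes tied to Brahma in the gut, Dl and yki were tested and did not pass as deposited. Dl, the Notch ligand, was at 324, 527 and 483 normalized reads in control EBs and at 477, 428 and 966 in Sox21a EBs, with Sox21a EB3 far above the rest. Its log2 fold change was 0.42 (SE 0.34, adjusted p = 0.37 by limma). yki, the Hippo pathway co-activator that works with Brm, was at 1315, 1097 and 976 normalized reads in control EBs and at 863, 929 and 967 in Sox21a EBs. It lay lower in each Sox21a library but did not pass as deposited (-0.29, adjusted p = 0.21), and passed after length-class centring (-0.60, adjusted p = 0.023). ase, a proneural gene, was between 1.97 and 4.14 in all 6 libraries, under the detection limit of 4.92 to 5.58, and was not tested.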

How the data were processed

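EBs of 2 genotypes were sorted and sequenced in 3 libraries each, for which the labels give a replicate number. The authors mapped paired reads to genome release 6.02 with Bowtie2 (per the submitters' processing notes and the methods), counted read pairs in exons and divided them by size factors. The deposited signal is therefore normalized reads per transcript, and each value was a whole multiple of 1 step per library within 0.01 step, with 2 steps the smallest. A limit of 5 steps (3 counts above the smallest) was used, for counting error only. A second deposited table holds the authors' own fold changes and p-values and was not used.

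limma 3.58.1 (R 4.3.3; lmFit, eBayes without trend) was run on log2(value + 1), for the 11400 of 19674 transcripts that averaged 10 or more across the 6 libraries, with two-sided p-values adjusted by Benjamini-Hochberg over all of them. On this scale the fold change of a weakly expressed transcript comes out too small. Deviations from the group means correlated between libraries of the same number (0.17, 0.13 and 0.12). The numbers were therefore taken as a possible pairing, from the data and not from the labels. The main fit did not use this pairing, and the replicate block was run as an alternative. p-values measure the spread between pools of flies.

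Length-class centring subtracted each library's median within 10 classes of canonical transcript length, for 11121 transcripts (97.6%) with a length in Ensembl release 115. Positions are from the same annotation of Release 6. Tables were handled in Python 3.11.15 with numpy 2.4.6 and pandas 2.3.3, plots were drawn with matplotlib 3.10.9, and the fit was tested on simulated data. The 8 genes and all lists were chosen with earlier results of these data known. Genes named are the 8, each further subunit, 1 gene in each direction per other list (the largest change past the threshold), the 5 genes closest to brm, Dl, ase, yki and Sox21a; the cell type markers named were singled out after their values were seen. Alternatives were pseudocounts of 0.1 and 10, no filter, a mean of at least 100, the rescaling, the replicate block, both, each library left out, a limma trend, an adjusted p of 0.01 and 1 transcript per gene. Length-class centring and the fits combining control EB1 left out with the rescaling or the centring were chosen after seeing the data.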

Additional observations from a re-analysis of the deposited data

How the results depend on the processing

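The count of Brahma genes called higher was 1 as deposited. It was 2 with a pseudocount of 10, with a mean of at least 100 and with a limma trend, and 0 without a filter, after rescaling, after rescaling with the replicate block, with an adjusted p under 0.01, and after length-class centring with or without the block. With centring and without control EB1 it was 2. Leaving out each library in turn gave 0 to 3. The count called lower was 0 as deposited and 1 after rescaling, with the block or without control EB1. The block alone moved the calls of Snr1 (lost, adjusted p = 0.066) and Bap55 (gained, 0.037) and no other call among the 8. The median log2 fold change of the 8 was 0.19 as deposited, -0.0041 after rescaling with or without the block, and 0.035 after length-class centring with or without it. Over the further Brahma subunits and the other lists together, 8 were higher and 4 lower as deposited, 4 and 13 after rescaling, 9 and 7 with the block, and 5 and 6 after centring. Directions that turned were those of Bap60 (-0.0095 after rescaling, with or without the block, -0.096 after centring with or without the block, and -0.079 after centring without control EB1), mor (-0.12 to 0.058 with 1 library left out, above 0 without control EB1), polybromo (-0.25 to 0.21 with 1 library left out, above 0 without control EB1 and, at 0.014, without Sox21a EB2, and 0.23 after centring without control EB1) and Dl (-0.023 after rescaling without control EB1). The cause was not tested in any of these. Of the 152 values of the 8 genes over 19 alternatives, 120 kept their direction and their side of the threshold. brm, Snr1 and Bap55 were above 0 and osa below 0 in all 19 alternatives. The filters, the block, the limma trend and 1 transcript per gene leave these fold changes unchanged, so no direction could turn there. Nor can leaving out 1 library turn a gene whose groups do not overlap. A count test on whole reads was planned and was not run, because the deposited values hold a floor or an added amount of 2 steps. Depth did not limit the 8 genes, whose lowest value was 255 normalized reads, and ase lay under the detection limit.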
